A study of Mus musculus with 4 samples.

Results

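The genes described here are 10 members of the cellular defence against oxidants and metals, namely *Nfe2l2*, *Keap1*, *Nqo1*, *Hmox1*, *Gclc*, *Gclm*, *Txnrd1*, *Srxn1*, *Mt1* and *Mt2*. They were taken by gene symbol from a table of 16015 genes quantified by RNA-seq in mouse colonic crypts. A symbol matched for 9 of the 10, and *Mt2* was not analysed here. The study compared control mice, labelled WT, with mice lacking the circadian transcription factor *Bmal1* in the intestinal epithelium, labelled *Bmal1* cKO, during colitis. Each group had 2 mice with 1 library each. By the study's methods, control mice carried *Bmal1* fl/fl alleles and cKO mice carried *Villin*-CreERT2 together with *Bmal1* fl/fl, so that the floxed allele was shared and the inducible Cre was driven by the *Villin* promoter in epithelium. Animals were littermates on a C57BL/6 background, aged 2 to 4 months. Tamoxifen was injected for 5 days to activate Cre, and whether controls were injected too is not given in the sources used here. Colitis was induced with 3% dextran sulfate sodium (DSS), which injures the colonic epithelium, in the drinking water for 5 days, followed by 2 days of plain water. Crypts were collected on day 7 by EDTA and scraping, without a cell sort.

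NRF2, encoded by *Nfe2l2*, is a transcription factor that switches on antioxidant and detoxification genes. KEAP1 holds NRF2 in the cytoplasm and delivers it for degradation until oxidants or electrophiles modify KEAP1, after which NRF2 enters the nucleus, pairs with small MAF proteins and binds antioxidant response elements. Its textbook targets include the glutathione synthesis genes *Gclc* and *Gclm*, the quinone reductase *Nqo1*, the thioredoxin system genes *Txnrd1* and *Srxn1*, and the haem oxygenase *Hmox1*, which the repressor BACH1 also restrains. Metallothioneins such as *Mt1* are small cysteine-rich proteins that bind zinc and copper and are induced through the metal-sensing factor MTF1.

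Among the 9 genes, those with lower levels in libraries labelled *Bmal1* cKO numbered 3 (*Keap1*, *Hmox1* and *Mt1*), 2 were higher (*Nqo1* and *Gclm*) and 4 did not pass the test (*Nfe2l2*, *Gclc*, *Txnrd1* and *Srxn1*), at a limma adjusted p under 0.05. For comparison, 27.7% of all 13983 tested genes were called lower and 29.0% higher, so that a call by itself was common in these libraries. The known targets did not move as 1 block. *Hmox1* was 11.9-fold lower, whereas *Gclm* was 2.49-fold and *Nqo1* 2.67-fold higher. Once values were corrected for GC content and exon length, 2 of the 9 were lower (*Hmox1* and *Mt1*) and 4 were higher (*Nqo1*, *Gclm*, *Srxn1* and *Keap1*), against 18.0% and 17.8% of all genes. *Keap1* was therefore lower before this correction and higher after it. With any 1 mouse left out, the uncorrected log2 difference of *Hmox1* stayed between -3.85 and -3.15 and that of *Mt1* between -2.27 and -1.77. That of *Nqo1* stayed between 1.25 and 1.59, that of *Gclm* between 1.24 and 1.39 and that of *Keap1* between -0.62 and -0.46.

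Features of the whole dataset bear on each of these values. Libraries held 10312791 to 14156639 counted reads. *Arntl*, the gene that encodes BMAL1 (chr7:113207465-113314126), was at 358 and 342 normalised counts in the WT libraries. In the libraries labelled cKO it was at 341 and 289, a log2 difference of -0.16 ± 0.14 (SE, adjusted p = 0.389). The GC-corrected difference was -0.43 ± 0.14 (adjusted p = 0.0659). The deletion was thus not visible in the summed reads of the gene, which do not separate the floxed exons from the rest. By immunoblot and immunohistochemistry, the paper reports that BMAL1 was lost from the intestinal epithelium of its cKO mice. Whether those mice included the sequenced ones is not given in the sources used here. The log2 fold change fell with GC content across genes, with a Spearman rho of -0.61 over 13975 genes that share the same 4 libraries. The median log2 fold change ran from 1.13 in the tenth of genes with the lowest GC content to -1.35 in the tenth with the highest. Epithelial markers were present at high level in all 4 libraries, but they did not move together. Of 15 tested, 6 were lower, 2 higher and 7 not called, with a median log2 difference of -0.44, from -2.50 for *Tff3* and -1.41 for *Muc2*, goblet cell products, through -0.00 for *Epcam* (adjusted p = 0.984) to 2.13 for the anion exchanger *Slc26a3*. Markers of other cell types were higher in WT, with summed levels from 3.70-fold (macrophages) to 73.8-fold (erythroid cells) those of the libraries labelled cKO, and the WT mice also differed from each other, with fibroblast sums of 13603 and 2296. In such bulk samples fewer cells of a type and less RNA per cell cannot be told apart.

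**Figure D1:**
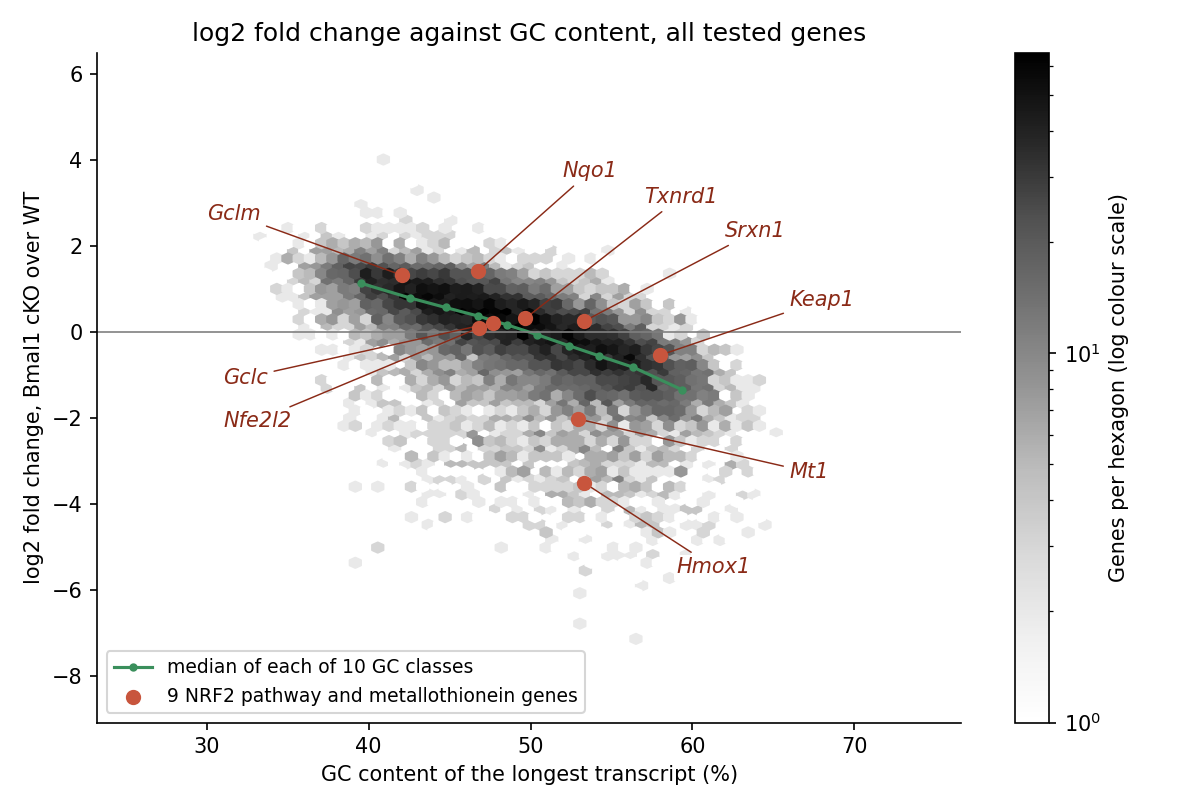
Log2 fold change (libraries labelled Bmal1 cKO over WT, vertical axis) against the GC content of each gene's longest transcript in percent (horizontal axis) for the tested genes, shaded by genes per hexagon, with the median of each of 10 GC classes and the 9 NRF2 pathway and metallothionein genes marked. Hmox1 lies far below the trend at -3.50, Nqo1 and Gclm lie above it at 1.42 and 1.32, and Keap1 at -0.54 lies above the median of -1.35 of its own class.

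Sequences upstream of the transcription start are shown for the called genes that matched a RefSeq promoter entry (mouse build GRCm38.p6), because they show where the letters bound by NRF2 and MTF1 occur. Entries matched for 7 of the 9 genes. The motifs searched on both strands were the antioxidant response element core TGACNNNGC, the metal response element as TGCACNC or TGCGCNC, and the circadian E-box CACGTG, which is bound by BMAL1 with its partner CLOCK. Each line gives the 250 bases before the annotated start, read 5′ to 3′ on the strand of the gene, and capitals mark the motif matches.
Gclm: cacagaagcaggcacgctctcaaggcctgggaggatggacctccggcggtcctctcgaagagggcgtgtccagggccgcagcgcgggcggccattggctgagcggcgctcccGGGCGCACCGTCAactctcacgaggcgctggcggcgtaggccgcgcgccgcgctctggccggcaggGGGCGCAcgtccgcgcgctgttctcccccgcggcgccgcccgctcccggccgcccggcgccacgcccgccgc
Mt1: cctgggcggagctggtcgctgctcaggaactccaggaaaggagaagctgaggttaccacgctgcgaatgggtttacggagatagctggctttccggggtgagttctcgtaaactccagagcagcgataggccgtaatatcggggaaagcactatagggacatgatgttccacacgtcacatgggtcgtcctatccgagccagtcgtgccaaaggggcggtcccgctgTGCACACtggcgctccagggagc
Nqo1: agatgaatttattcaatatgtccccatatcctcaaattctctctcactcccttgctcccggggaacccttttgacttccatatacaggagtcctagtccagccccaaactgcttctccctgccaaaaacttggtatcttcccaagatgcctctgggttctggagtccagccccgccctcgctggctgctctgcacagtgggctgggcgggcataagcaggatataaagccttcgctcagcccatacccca
Keap1: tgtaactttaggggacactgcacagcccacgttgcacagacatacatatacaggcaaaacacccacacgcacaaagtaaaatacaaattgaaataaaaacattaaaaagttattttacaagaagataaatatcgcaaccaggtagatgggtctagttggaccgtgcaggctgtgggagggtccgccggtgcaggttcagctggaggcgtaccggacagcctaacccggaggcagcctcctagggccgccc
The lines cover chr3:122245307-122245556 (plus strand) for *Gclm*, chr8:94178839-94179088 (plus strand) for *Mt1*, chr8:107403206-107403455 (minus strand) for *Nqo1* and chr9:21239333-21239582 (minus strand) for *Keap1*.

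In windows of 300 bases, from 250 before to 50 after the start, the antioxidant element core matched in 4 of the 7 genes, against 12.4% of 32544 promoters. Each gene is counted once here, and *Txnrd1* had 3 windows, so that counts of genes and shares of promoters are not in the same unit. The members were also chosen as genes of this pathway. *Gclm* held it at -134 to -126, where it overlapped a TGCGCNC match at -138 to -132. *Nfe2l2* held it at -240 to -232, *Txnrd1* at -92 to -84 of 1 of its 3 annotated starts and *Srxn1* at 29 to 37 after the start. A metal response element matched in 3 of the 7 genes, *Mt1*, *Gclm* and *Srxn1*, against 25.9% of promoters with either form. *Mt1* held TGCACNC at -23 to -17 and at 3 to 9, and TGCGCNC at 21 to 27. *Nqo1* and *Keap1* had no match in this window, and no E-box was found in any window of the 7 genes, against 7.17% of promoters. These matches describe the letters only.

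The regulators were examined first. *Nfe2l2* (ENSMUSG00000015839, chr2:75675513-75704641) was at 1952 and 2207 normalised counts in WT and at 2123 and 2307 in the libraries labelled cKO. The groups overlapped, and the log2 difference was 0.09 ± 0.11 (SE, 95% interval -0.17 to 0.36, adjusted p = 0.479). The transcript level of NRF2 thus did not differ beyond the spread between mice, which says nothing of its protein. After the GC correction the difference was -0.28 (adjusted p = 0.0714).

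*Keap1* (ENSMUSG00000003308, chr9:21229730-21239361), the inhibitor of NRF2, was at 661 and 698 in WT and at 494 and 441 in the libraries labelled cKO. Both of the latter lay below both WT libraries, as for 41.7% of all genes, and the level was 1.45-fold higher in WT, a log2 difference of -0.54 ± 0.12 (SE, adjusted p = 0.0118). With a GC content of 58.0%, *Keap1* belongs to the class of genes whose median fell most, by 1.35 on the log2 scale, and after the correction its difference was 0.48 ± 0.10 (adjusted p = 0.0202), in the opposite direction. The uncorrected call also did not hold when WT1 (-0.58, adjusted p = 0.0554), WT2 (-0.50, adjusted p = 0.0701) or cKO2 (-0.46, adjusted p = 0.0633) was left out, although these differences were of similar size. An antisense gene, *Gm16754*, overlaps *Keap1*, and reads of the pair cannot be told apart if counting ignored strand.

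**Figure D2:**
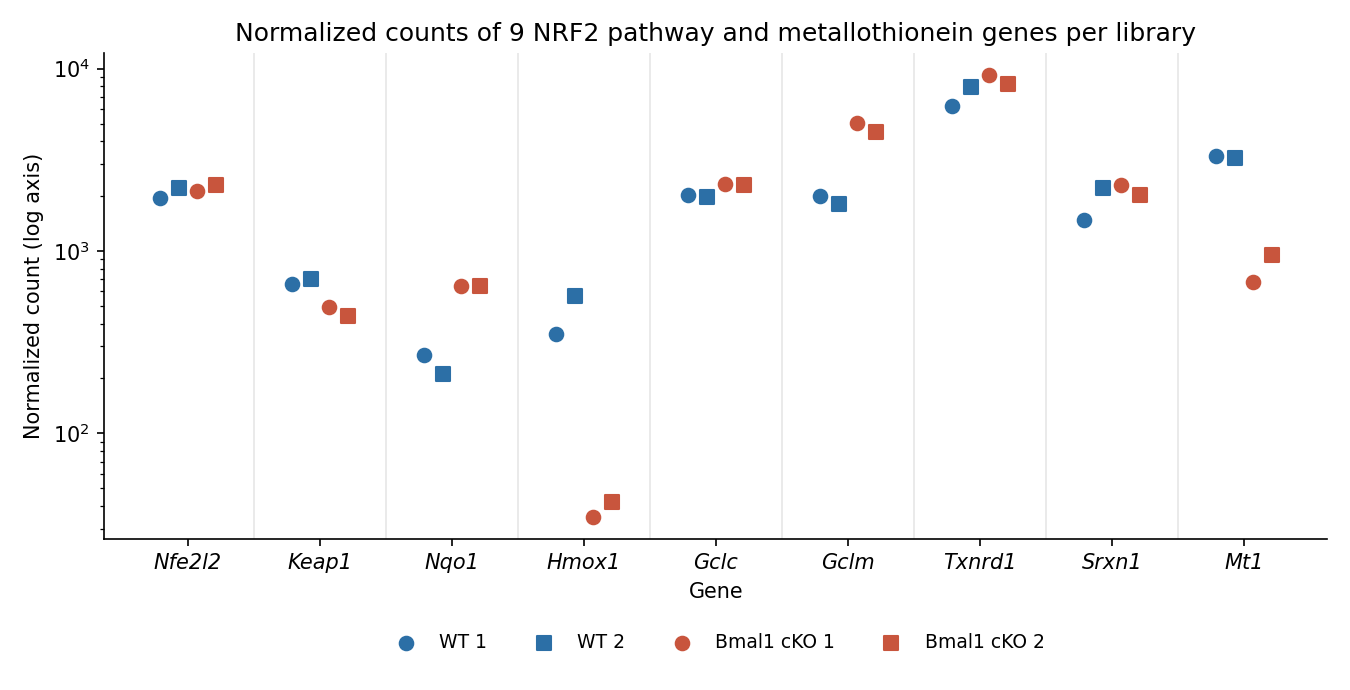
Normalised counts (log axis) of the 9 genes in each of the 4 libraries, with WT in blue and Bmal1 cKO in red and replicate 1 as a circle and replicate 2 as a square. Hmox1 and Mt1 show the widest gaps below WT, with cKO-labelled values of 35.0 and 41.9 for Hmox1 and of 673 and 956 for Mt1, and Nqo1 and Gclm lie above WT in both cKO-labelled libraries.

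Of the genes of glutathione synthesis, *Gclm* passed the test and *Gclc* did not. *Gclm* (ENSMUSG00000028124, chr3:122245557-122270732) encodes the modifier subunit of glutamate-cysteine ligase, the rate-limiting enzyme of the pathway. It was at 2005 and 1810.1 in WT and at 5005 and 4511 in the libraries labelled cKO, with no overlap, and rose by 1.32 ± 0.11 on the log2 scale (SE, adjusted p = 0.000644). The gene is poor in GC (42.1%), a class in which the median gene rose by 0.79, and after the correction *Gclm* remained higher by 0.44 ± 0.10 (adjusted p = 0.0270). *Gclc* (ENSMUSG00000032350, chr9:77754535-77794485), the catalytic subunit, was at 2034 and 1971 in WT and at 2344 and 2313 in the libraries labelled cKO. Although the groups did not overlap, as for 40.3% of all genes in this direction, the difference of 0.22 ± 0.08 (95% interval 0.01 to 0.43) did not pass the adjusted threshold (adjusted p = 0.0744) and was -0.07 after the correction (adjusted p = 0.542). Per kilobase of exon, the level of *Gclm* relative to *Gclc* was 0.590 and 0.550 in the WT libraries and 1.28 and 1.17 in the libraries labelled cKO. In these values the modifier subunit transcript was thus below the catalytic one in both WT mice and above it in both mice labelled cKO. These ratios are uncorrected, and the corrected log2 differences of 0.44 and -0.07 lie closer together than the uncorrected 1.32 and 0.22. Whether the order of the subunits also changes after the correction was not computed. The *Gclm* locus overlaps the annotated genes *Gm17494* and *Gm6061*, so some of its reads may not be assignable. The same holds for *Txnrd1*, which overlaps *Eid3*, *Gm38560* and *Gm47073*, and for *Nfe2l2*, which overlaps *Gm24996*.

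*Nqo1* (ENSMUSG00000003849, chr8:107388225-107403206), which reduces quinones by 2 electrons and is a widely used readout of NRF2 activity, was at 268 and 213 in WT and at 639 and 642 in the libraries labelled cKO. Both of the latter were well above both WT mice, and the increase was 1.42 ± 0.15 on the log2 scale (SE, adjusted p = 0.00127), larger than that of 94.0% of the genes tested. The correction left an increase of 1.10 ± 0.16 (adjusted p = 0.00800). Genes of its GC content (46.7%) had a median of 0.37.

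In the thioredoxin system neither gene passed the test. *Txnrd1* (ENSMUSG00000020250, chr10:82833951-82897712), the cytosolic thioredoxin reductase, was at 6204 and 7888 in WT and at 9220.3 and 8199 in the libraries labelled cKO. The groups did not overlap, but the WT mice differed by as much as the groups, and the difference was 0.31 ± 0.15 (95% interval -0.07 to 0.69, adjusted p = 0.128). It was 0.14 without WT1, 0.49 without WT2 (adjusted p = 0.0603) and 0.09 when libraries were scaled by their totals. *Srxn1* (ENSMUSG00000032802, chr2:152105516-152111376) encodes sulfiredoxin, which reactivates over-oxidised peroxiredoxins. It was at 1484 and 2207 in WT and at 2289 and 2026 in the libraries labelled cKO, and these overlapped. Its difference was 0.25 ± 0.20 (95% interval -0.25 to 0.75, adjusted p = 0.321) and rested on WT1, being -0.04 (adjusted p = 0.830) without that library and 0.54 (adjusted p = 0.0444) without WT2. After the correction it was 0.67 ± 0.19 (adjusted p = 0.0449).

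*Hmox1* (ENSMUSG00000005413, chr8:75093621-75100589) showed the widest difference of the 9 genes. Its product, haem oxygenase 1, opens haem to release iron, carbon monoxide and biliverdin, and it is abundant in macrophages that take up red cells. The level was 349 and 566 normalised counts in WT and 35.0 and 41.9 in the libraries labelled cKO, where it rested on 34 and 31 reads. It fell by 3.50 ± 0.29 on the log2 scale (SE, adjusted p = 0.000690), and the corrected difference was -3.06 ± 0.28 (adjusted p = 0.00356). Markers of other cell types moved with it. The summed level of 12 macrophage markers was 9445 and 8696 in WT and 2456 and 2449 in the libraries labelled cKO, 9 of the 12 fell and none was at 0 reads in both. Their median log2 difference was -3.22, a wider fall than that of the sum, in which *Cd14* (-1.11, adjusted p = 0.12) was the largest part in the libraries labelled cKO, and *Mertk* rose by 0.96 (adjusted p = 0.00840). The erythroid sum was 1352 and 2039.7 in WT and 21.6 and 24.3 in the libraries labelled cKO, all 5 tested markers fell, and *Hba-a2* was at 0 reads in both. Neutrophil markers summed to 3574 and 19984 in WT and to 658 and 338 in the libraries labelled cKO. Among WT mice *Hmox1* was higher in WT2, as were the erythroid, neutrophil, smooth muscle and epithelial sums. The macrophage, lymphocyte, fibroblast and endothelial sums were higher in WT1. The part of these cells in the *Hmox1* difference was not tested.

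*Mt1* (ENSMUSG00000031765, chr8:94179082-94180327) was at 3299.9 and 3219.6 in WT and at 673 and 956 in the libraries labelled cKO, 4.0-fold lower on average. The WT mice were nearly equal and the groups were far apart, and the log2 difference was -2.02 ± 0.18 (SE, adjusted p = 0.000744). After the correction it was -1.56 ± 0.16 (adjusted p = 0.00407), and genes of its GC class had a median of -0.32. The equal WT values stood beside fibroblast sums of 13603 and 2296, lymphocyte sums of 10615 and 1083 and neutrophil sums of 3574 and 19984 in WT1 and WT2, which differed widely, and beside smooth muscle sums of 1738 and 1922, which differed little. The macrophage sums of 9445 and 8696 were close because *Cd14* (1636 and 5241) ran against other markers such as *Lyz2* (3749 and 1335) and *C1qa* (594 and 75.4). All of these sums were lower in the libraries labelled cKO, and the part of these cells in the *Mt1* difference was not tested.

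**Figure D3:**
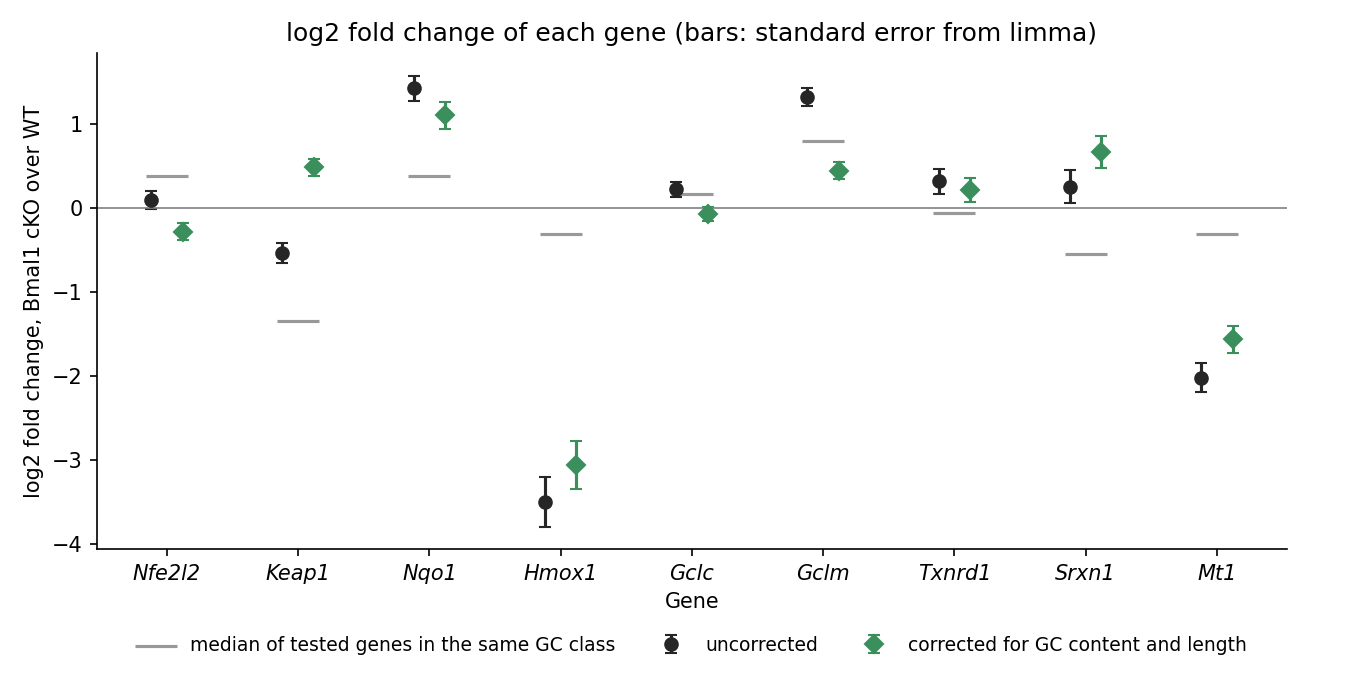
Log2 fold change (libraries labelled Bmal1 cKO over WT) of the 9 genes uncorrected (black) and corrected for GC content and length (green), with limma standard errors as bars, a line at 0 and a grey mark at the median of tested genes of the same GC class. Hmox1 and Mt1 stay below 0 and Nqo1 and Gclm above 0 in both, while Keap1 moves from -0.54 to 0.48.

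**Figure D4:**
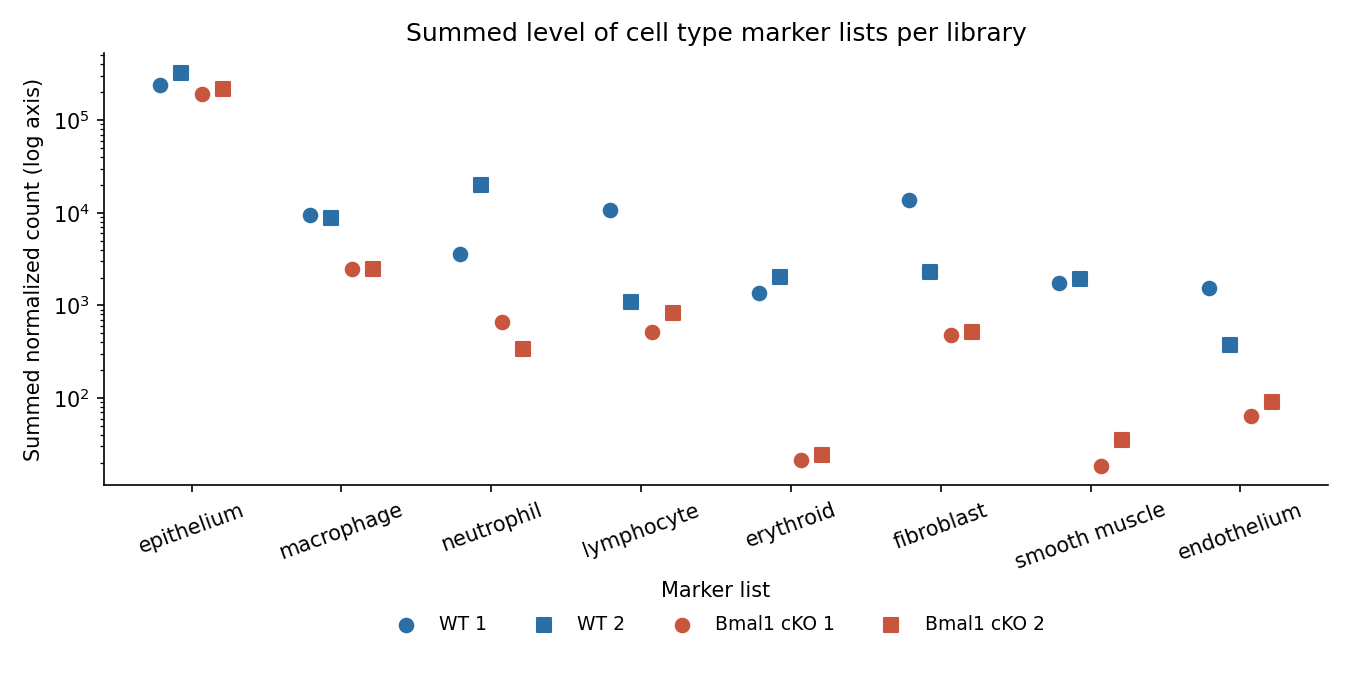
Summed normalised counts (log axis) of 8 lists of cell type markers in each of the 4 libraries. Epithelial sums lie between 190819 and 326007 in all libraries, and all 8 sums are lower in both libraries labelled Bmal1 cKO than in both WT libraries, least for epithelium (1.4-fold, with Muc2 the largest part in WT at 62753 and 101737 against 24129 and 37690 in the libraries labelled cKO) and most for erythroid markers (73.8-fold).

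Levels were also compared between genes per kilobase of exon. These values are uncorrected for GC content and use the merged length of all annotated exons. In WT, *Mt1* was highest at a mean of 2616 normalised counts per kilobase, followed by *Txnrd1* (994), *Srxn1* (654), *Nfe2l2* (548), *Gclc* (532), *Gclm* (303), *Hmox1* (261), *Nqo1* (155) and *Keap1* (145). The ranges of *Srxn1*, *Nfe2l2* and *Gclc* overlapped between mice, as did those of *Gclm* and *Hmox1* and those of *Nqo1* and *Keap1*. In the libraries labelled cKO the order was *Txnrd1* (1229), *Srxn1* (765), *Gclm* (756), *Mt1* (653), *Gclc* (618), *Nfe2l2* (584), *Nqo1* (412), *Keap1* (99.5) and *Hmox1* (22.0). Here the ranges of *Srxn1*, *Gclm* and *Mt1* overlapped, and *Mt1*, at 540 and 767, also spanned those of *Gclc* and *Nfe2l2*. In these uncorrected values *Mt1* passed from above every other member to a mean below those of *Txnrd1*, *Srxn1* and *Gclm*. *Hmox1* passed from above *Nqo1* to the lowest place. The GC correction moved the log2 difference of *Mt1* from -2.02 to -1.56 and that of *Gclm* from 1.32 to 0.44. Ranks after the correction were not computed.

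The wider pathway was described with 7 lists, of which 127 genes were tested. In all, 32 (25.2%) were lower and 40 (31.5%) higher, with a median log2 fold change of 0.15, beside 27.7% lower, 29.0% higher and a median of -0.04 over all genes. When libraries were scaled by their totals, which moved the median of all genes by -0.22, the split became 44 lower and 28 higher, beside 4885 lower and 3091 higher of all 13983 genes. After the GC correction 22 were lower and 32 higher, beside 18.0% and 17.8% of all genes. With 1 mouse left out the lower and higher genes numbered 21 and 32 without WT1, 23 and 34 without WT2, 20 and 27 without cKO1 and 18 and 26 without cKO2. Over all genes the same fits gave 2380 and 3023, 2852 and 3154, 2389 and 2798, and 2205 and 2654, against 3871 and 4059 with all mice. The uncorrected shares of the lists together thus stood near those of all genes.

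**Figure D5:**
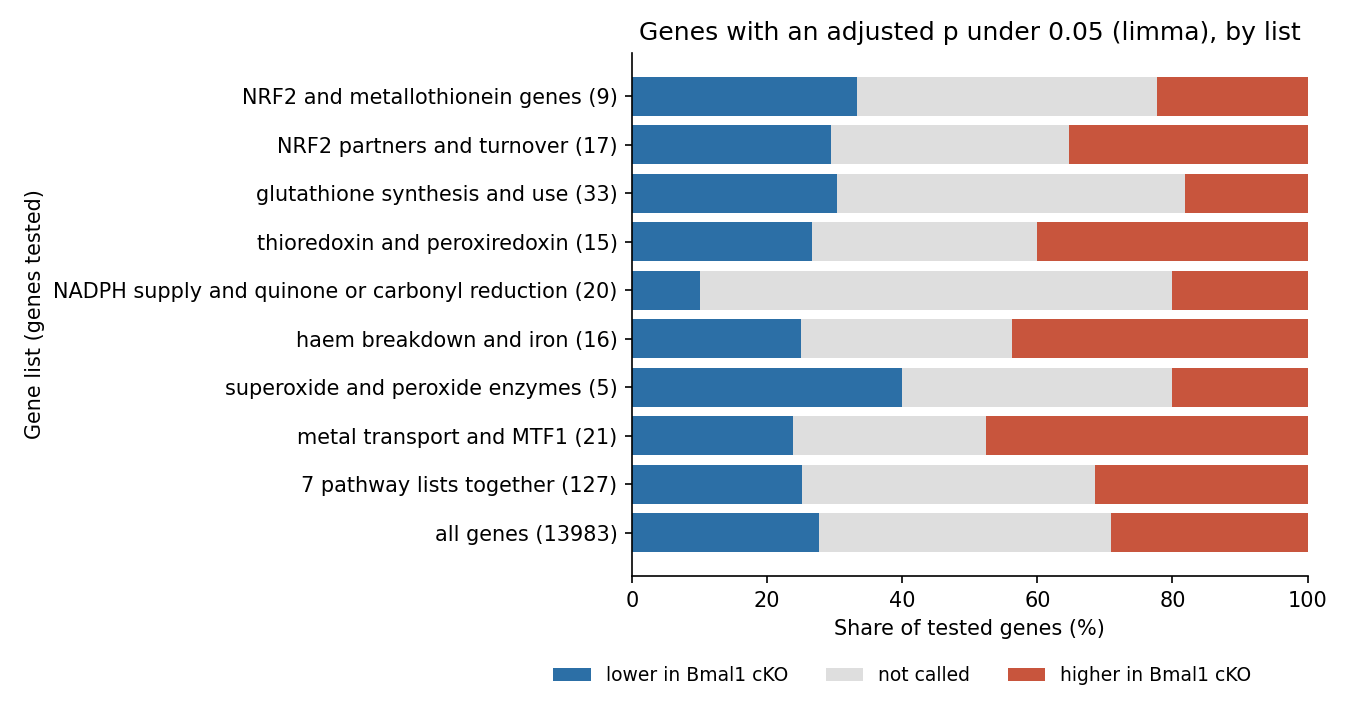
Share of tested genes in percent (horizontal axis) called lower, not called or called higher in the libraries labelled Bmal1 cKO, for the 9 NRF2 and metallothionein genes, each of 7 pathway lists, the lists together and all genes. Of the 127 genes of the lists, 32 were lower and 40 were higher, beside 27.7% lower and 29.0% higher of all genes. The metal transport list, with 10 of 21, had the largest share higher of the 7 lists.

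Among the partners of NRF2 and the proteins that turn it over, 5 of 17 were lower and 6 higher. For this and each list below, the shares over all genes were 27.7% lower and 29.0% higher. *Maff*, a small MAF partner that is also an inducible stress gene, was at 535 and 628 in WT and at 78.2 and 56.8 in the libraries labelled cKO, a fall of 3.10 on the log2 scale (adjusted p = 0.000542). *Sqstm1*, which encodes the p62 protein that sequesters KEAP1, fell by 1.0 on the log2 scale (adjusted p = 0.00381), with a corrected value of -0.51 (adjusted p = 0.0504). *Bach1*, the repressor of *Hmox1*, rose by 0.80 (adjusted p = 0.00191), from 1243 and 1402 to 2306 and 2292, with a corrected rise of 0.39 (adjusted p = 0.0267). *Gsk3b*, a kinase that marks NRF2 for degradation, rose by 0.79 (adjusted p = 0.00281), with a corrected value of 0.31 (adjusted p = 0.0702).

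Of 33 glutathione genes 10 were lower and 6 higher. *Slc3a2*, the heavy chain of the cystine and large neutral amino acid carriers, fell by 1.90 (adjusted p = 0.000706), from 1081 and 1184 to 263 and 346. *Chac2*, which degrades glutathione, rose by 2.09 (adjusted p = 0.000546), from 116 and 122 to 543 and 480, or by 0.96 once corrected (adjusted p = 0.0113), and the membrane glutathione transferase *Mgst1* rose by 1.56 (adjusted p = 0.00419). The secreted peroxidase *Gpx3* was at 2093 and 241 in WT and at 59.7 and 32.4 in the libraries labelled cKO (-3.98 ± 0.99, adjusted p = 0.0197), so that the WT mice themselves lay far apart, and the corrected value did not pass (adjusted p = 0.0567).

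In the thioredoxin and peroxiredoxin list 4 of 15 genes were lower and 6 higher. The stress-induced *Sesn2* fell by 1.71 (adjusted p = 0.00491) and *Txnrd3* by 1.02 (adjusted p = 0.0127), whereas *Sesn3* rose by 0.89 (adjusted p = 0.00141) and the mitochondrial peroxiredoxin *Prdx3* by 0.83 (adjusted p = 0.00197). Of these, *Prdx3* alone passed after the correction, at 0.39 (adjusted p = 0.0214).

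Of 20 genes that supply NADPH or reduce quinones and carbonyls, 2 were lower and 4 higher. The epoxide hydrolase *Ephx1* fell by 2.19 (adjusted p = 0.000590), from 422 and 490 to 94.6 and 103. *Pgls*, an enzyme of the pentose phosphate pathway, fell by 2.15 (adjusted p = 0.000533), with a corrected value of -1.21. *Ugdh*, which makes UDP-glucuronate for conjugation, rose by 1.87 (adjusted p = 0.000964), from 1245 and 1597 to 4502 and 5880, with a corrected value of 1.07. *Nqo2*, the relative of *Nqo1*, rose by 0.79 (adjusted p = 0.00524), but its corrected value was -0.01 (adjusted p = 0.965). *Nqo1* and *Ephx1*, both usually counted as NRF2 targets, therefore moved in opposite directions before and after the correction.

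Genes of haem breakdown and iron handling held 4 lower and 7 higher of 16. *Fth1*, the ferritin heavy chain that stores iron, was at 19973 and 26335 in WT and at 5108 and 6273 in the libraries labelled cKO, a log2 difference of -2.02 (adjusted p = 0.000838) and of -2.05 once corrected (adjusted p = 0.00325). *Slc48a1*, a haem transporter, fell by 1.43 (adjusted p = 0.00144), with a corrected value of -0.67 (adjusted p = 0.0268). *Tfrc*, the transferrin receptor that brings iron into the cell, rose by 1.64 (adjusted p = 0.00220), from 6334 and 7210 to 25753 and 17288, and *Slc40a1*, the iron exporter ferroportin, rose by 1.70 (adjusted p = 0.00505). Neither rise passed after the correction, with *Tfrc* at 0.56 (adjusted p = 0.0913) and *Slc40a1* at 0.81 (adjusted p = 0.0751). *Hmox1* and *Fth1* thus fell in both analyses.

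Of 5 superoxide and peroxide enzymes 2 were lower and 1 higher. Cytosolic *Sod1* fell by 1.07 (adjusted p = 0.000789), from 1971 and 2032 to 905 and 996, and its corrected difference was -1.36 (adjusted p = 0.00269). The secreted *Sod3* was at 1064 and 89.8 in WT and rested on 1 and 2 reads in the libraries labelled cKO. *Cat*, encoding catalase, rose by 0.47 (adjusted p = 0.0170), with a corrected value of 0.30 (adjusted p = 0.0686).

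In the list of metal transporters with the sensor *Mtf1*, 10 of 21 genes were higher and 5 lower, beside 29.0% higher and 27.7% lower of all genes. After the correction 10 were higher and 2 lower, beside 17.8% and 18.0% of all genes. The zinc exporter *Slc30a4* rose by 1.83 (adjusted p = 0.000533), from 1288 and 1459 to 4484 and 5301, and remained 0.89 higher after the correction. The copper importer *Slc31a1* rose by 1.56 (adjusted p = 0.000537), from 1549 and 1767 to 4663 and 5096, with a corrected value of 0.88. The zinc importer *Slc39a14* fell by 0.80 (adjusted p = 0.00892), and *Slc39a7* fell by 0.70 (adjusted p = 0.0144) with a corrected value of 0.26. A pair of genes was added after their values were seen. *Mtf1* itself rose by 0.56 (adjusted p = 0.00902), and *Slc30a1*, a zinc exporter, rose by 1.42 (adjusted p = 0.00770), or 0.98 once corrected (adjusted p = 0.0364).

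The genes with the most similar pattern over the 4 libraries were sought among 9983 genes, using the Euclidean distance of log2 values centred on each gene's mean. Nearest to *Hmox1* were *Chga* (distance 0.187) and *Chgb* (0.273), granins of enteroendocrine cells, and *Itgb2* (0.344), a leukocyte integrin chain. *Chga* was at 2031 and 2929.9 in WT and at 188 and 207 in the libraries labelled cKO. Nearest to *Mt1* were *Eif3g* (0.116), *Fam89b* (0.124) and *Sirt2* (0.126). *Mospd2* lay nearest to *Nqo1* (0.0128) and *Zfp952* nearest to *Gclm* (0.00895). With 4 libraries many genes share a pattern, and the distances for *Hmox1* and *Mt1* were the wider ones.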

How the data were processed

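RNA was sequenced from colonic crypts of 2 WT and 2 *Bmal1* cKO mice. The authors aligned reads with STAR to GRCm38 and normalised them with DESeq2. The counting tool, annotation and strand setting are not given in the sources used here. The deposited values are gene counts divided by a size factor (unit signal). Dividing by the step of 1 read gave whole reads for 100% of values within 0.01, so that depth was known. The authors' log2 fold changes with their errors, Wald score and p-value columns were deposited too and not used.

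Here log2(normalised count + 1) was tested with limma 3.58.1 (R 4.3.3; trend, two-sided, Benjamini-Hochberg adjustment, threshold 0.05) over 13983 genes with a mean of at least 10. The other genes play no part in the adjustment. Fold changes are on that scale, and ± is the moderated standard error of the fit with n = 2 mice a group. GC content was that of the longest annotated transcript and length that of the merged exons (GENCODE, GRCm38), with a loess correction of the log2 values in each library (span 0.3). Overlapping loci and levels per kilobase of exon used the same annotation. The count tests edgeR 4.0.16 and DESeq2 1.42.0 on the recovered reads, other scalings, filters, pseudocounts, a replicate block and leaving out each mouse were the alternatives. The limma step was also run on simulated counts, with equal spread for all genes and few changed genes, unlike these data. No result of that run is used here. Named genes were all members, *Arntl*, up to 2 genes that fell and 2 that rose most in each pathway list (mean of at least 100, adjusted p under 0.05), and the 3 nearest patterns per member, of which those of 4 members are given. *Mtf1*, *Slc30a1* and the single markers other than *Epcam* and *Muc2* (a defining and the highest epithelial marker) were named outside this rule, after their values were seen. Members and lists were chosen with earlier results of these data known. Read counts carry counting error besides the spread between mice.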

Additional observations from a re-analysis of the deposited data

How the results depend on the processing

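*Hmox1* (-3.85 to -3.06), *Mt1* (-2.27 to -1.56), *Nqo1* (1.10 to 1.59) and *Gclm* (0.44 to 1.39) kept their direction and their call in all 15 alternatives, and *Txnrd1* (0.09 to 0.49) passed in none. Correction for GC content and length gave 2519 lower and 2487 higher genes against 3871 and 4059, 4 members higher against 2, and turned *Keap1* to 0.48, *Nfe2l2* to -0.28 and *Gclc* to -0.069. With the replicate block added, the corrected fit gave 2182 and 2139 genes, the same 3 values and 3 members higher, since the corrected call of *Srxn1* was lost (adjusted p = 0.0579). Scaling by library total gave 4885 lower and 3091 higher genes and turned *Nfe2l2* to -0.13 and *Gclc* to -0.0085. *Srxn1* was -0.035 without WT1 and 0.54 without WT2, where it passed. *Keap1* lost its call without WT1, WT2 or cKO2. Leaving out each mouse, with the lone mouse assumed to vary like the other group, gave 2205 to 2852 lower and 2654 to 3154 higher genes, 2 to 3 members lower and 2 to 3 higher, and 18 to 23 pathway genes lower and 26 to 34 higher. Same-numbered deviations from the group means correlated at -0.09 over genes. With only 2 mice a group, this does not show whether the replicate numbers pair the mice. The fit with the replicate block gave 3789 lower and 3899 higher genes, 3 and 2 members, 30 and 43 pathway genes, and changed no call of a member. On the recovered reads edgeR called 3749 lower and 3924 higher genes and DESeq2 3775 and 3751. The cause of these changes was not tested. Each group had 2 mice, and the adjusted p of *Nfe2l2*, *Gclc* and *Txnrd1* missing the threshold does not show equal levels.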

Other observations

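Ratios within a library set members that moved in opposite directions side by side. Per kilobase of exon, the level of *Hmox1* relative to *Nqo1* was 1.16 and 2.36 in the WT libraries and 0.0486 and 0.0579 in the libraries labelled cKO, although both are usually listed as NRF2 targets. The level of *Mt1* relative to *Gclm* was 8.31 and 8.98 in WT and 0.679 and 1.07 in the libraries labelled cKO. For the inhibitor and its partner, *Nfe2l2* relative to *Keap1* was 3.65 and 3.91 in WT and 5.32 and 6.47 in the libraries labelled cKO. All 3 ratios are uncorrected. The GC correction took *Nfe2l2* to -0.28 and *Keap1* to 0.48, which turns the direction of their ratio. The GC correction moved the log2 difference of *Mt1* from -2.02 to -1.56 and that of *Gclm* from 1.32 to 0.44, so that the gap between them narrowed.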
